A study of Mus musculus with 8 samples.

Results

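Type I interferon response genes were examined in peritoneal macrophages as a set of 42 genes, chosen by name: interferon beta, the 2 chains of its receptor, and genes that type I interferon is known to induce. All 42 were listed among the 23735 loci of the expression table, and 41 reached 1 RPKM (read number divided by transcript length and library depth) in at least 2 of the 8 libraries, as 11272 loci did. The member that did not was Ifnb1. The macrophages came from mice of the C57BL/6J strain aged 8 weeks, and the labels give the controls as MED1 fl/fl, that is with a floxed Med1 gene. MED1 is a subunit of Mediator, the complex that links transcription factors to RNA polymerase. The 4 groups were MED1ΔMac cells, which lack MED1 in macrophages (KO), given lipopolysaccharide (LPS, a bacterial cell wall component) at 50 ng/mL for 6 h; MED1 fl/fl cells, labelled WT, given the same LPS; untreated KO cells; and untreated WT cells. Each group had 2 libraries, labelled A and B. Values of a pair are given below as A and then B. The labels name neither the driver of the macrophage deletion nor what the letters stand for, and do not say that the libraries came from separate animals, so the p-values measure only the spread between these libraries.

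Type I interferons are secreted proteins that cells release when they sense microbial nucleic acid or LPS. They bind a receptor made of the chains IFNAR1 and IFNAR2, and the kinases JAK1 and TYK2 then activate the transcription factor complex ISGF3, which binds the interferon-stimulated response element (ISRE) in front of its target genes. In macrophages, LPS acts through TLR4 and the adaptor TRIF, encoded by Ticam1, to induce interferon beta, and the products of the target genes block steps of viral replication.

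Estimated depth ranged from 6.99 to 14.4 M mapped reads per library, and 10192 to 11027 loci reached 1 RPKM in each. Med1 did not separate the genotypes at the level of the whole gene, with 24.4 and 20.3 RPKM in KO LPS, 24.7 and 21.6 RPKM in WT LPS, 17.6 and 23.4 RPKM in KO untreated and 21.7 and 24.8 RPKM in WT untreated libraries. A value over the whole gene does not check a deletion of some exons. Of the macrophage markers, Emr1, which encodes F4/80, lay between 277 and 709 RPKM in the 8 libraries. Itgam, which encodes CD11b, lay between 400.5 and 703 RPKM. The genotypes are compared on all the macrophage markers below. All 7 B cell markers looked for were also detected in every library, with a summed level of 1435 and 1020 RPKM in KO LPS, 627 and 420.0 RPKM in WT LPS, 591 and 1755 RPKM in KO untreated and 647 and 579.9 RPKM in WT untreated libraries. In these bulk libraries, fewer cells of a type and less RNA per cell cannot be told apart.

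LPS raised a large share of the interferon genes in both genotypes. In KO cells 20 of 41 rose and 0 fell, and in WT cells 17 of 41 rose and 0 fell, by limma's test with a Benjamini-Hochberg adjusted p under 0.05 over all 11272 loci. The background over the 11272 loci was 3.31% higher and 3.31% lower after LPS in KO cells, and 3.17% higher and 3.14% lower in WT cells. The median member changed by 1.27 in KO cells and 1.25 in WT cells on the log2(RPKM + 1) scale, where all loci had medians of -0.28 and -0.25. Both LPS libraries lay above both untreated libraries for 34 of 41 members in KO cells, against 15.1% of all loci, and for 35 of 41 in WT cells, against 18.2%. The largest rises were those of Isg15, Ifit1, Rsad2, Mx1, Oasl1 and Ifit3 in KO cells. All log2 changes below are on this scale, which understates the changes of genes with low levels, and are given with the standard error (SE) of the fit.

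**Figure D1:**
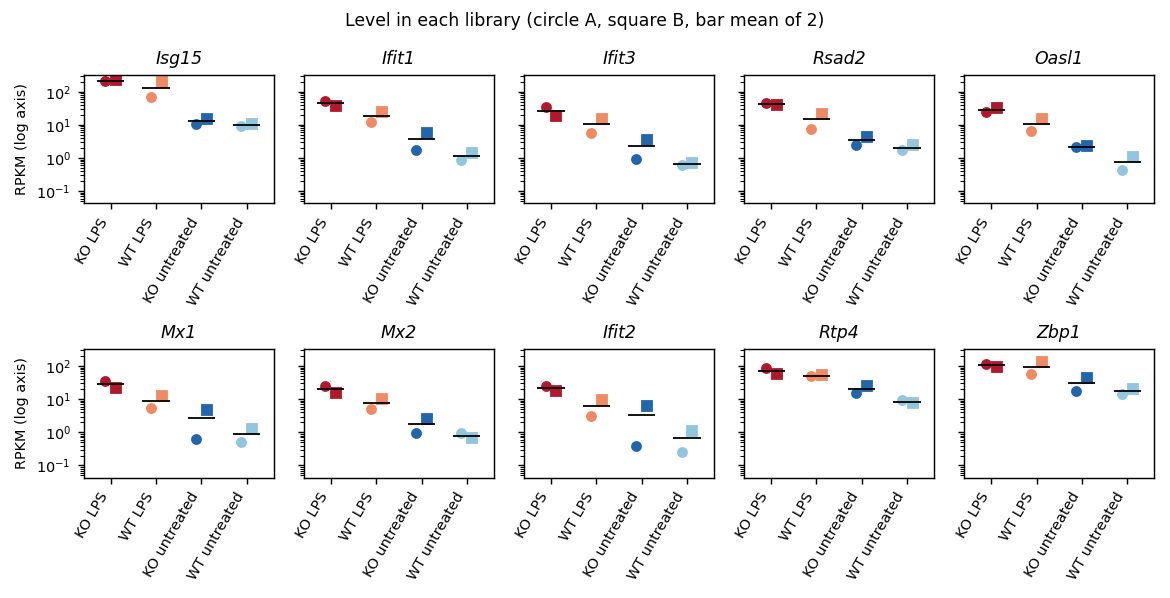
RPKM on a log axis of 10 members in the 8 libraries, with circles for A, squares for B and a bar at the mean of the 2 libraries of a group. Isg15 reached 209.6 and 222 RPKM in the KO LPS libraries, and in all 10 genes every LPS library lay above the untreated WT libraries.

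The receptor genes did not pass with LPS, and the ligand had too few reads to judge. Ifnb1, which encodes interferon beta, was listed at 0.312 and 0.191 RPKM in the KO LPS libraries, which is an estimated 2.49 and 1.25 reads, and at 0 in the other 6 libraries. Both values were under the level that 3 reads would give there, 0.376 and 0.460 RPKM, so no fold was computed. Ifnar1 stood at 45.7 and 36.4 RPKM in KO LPS libraries and 62.2 and 42.7 RPKM in WT LPS libraries, against 41.9 and 34.5 RPKM in KO untreated and 40.5 and 39.8 RPKM in WT untreated libraries. Ifnar2 stood at 80.7 and 99.7 RPKM in KO LPS libraries and 107.5 and 122 RPKM in WT LPS libraries, against 76.0 and 82.1 RPKM in KO untreated and 72.3 and 102.4 RPKM in WT untreated libraries. The receptor chains were thus well expressed in all 8 libraries, and neither passed the test with LPS. Their log2 changes were 0.10 ± 0.24 (Ifnar1) and 0.18 ± 0.23 (Ifnar2) in KO cells, and 0.35 ± 0.24 and 0.41 ± 0.23 in WT cells (SE). For each chain, both WT LPS libraries lay above both WT untreated libraries, as for 18.2% of all loci.

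Among 4 sensors of nucleic acid, Ifih1 rose in both genotypes, Dhx58 passed in KO cells and Zbp1 passed in WT cells. Ifih1, which encodes the RNA sensor MDA5, had 45.2 and 47.2 RPKM in KO LPS libraries and 21.6 and 36.3 RPKM in WT LPS libraries, against 7.78 and 11.4 RPKM in KO untreated and 8.03 and 10.7 RPKM in WT untreated libraries. It rose by 2.17 ± 0.30 in KO cells (SE, limma adjusted p = 0.0141) and by 1.5 ± 0.30 in WT cells (adjusted p = 0.0336), with no overlap between LPS and untreated libraries in either. Zbp1, a sensor of Z-form nucleic acid that can trigger cell death, reached 119 and 92.8 RPKM in KO LPS libraries and 58.2 and 133 RPKM in WT LPS libraries, against 17.4 and 44.2 RPKM in KO untreated and 14.4 and 20.8 RPKM in WT untreated libraries. The LPS libraries of both genotypes lay above all untreated ones. Its change of 2.28 ± 0.51 in WT cells passed (adjusted p = 0.0452), while 1.88 ± 0.51 in KO cells did not (adjusted p = 0.070). Dhx58, which encodes the RNA sensor LGP2, had 37.9 and 23.4 RPKM in KO LPS libraries and 14.3 and 16.5 RPKM in WT LPS libraries, against 11.1 and 10.7 RPKM in KO untreated and 10.6 and 8.10 RPKM in WT untreated libraries. Its change of 1.37 ± 0.26 passed in KO cells (adjusted p = 0.0304) and that of 0.67 ± 0.26 in WT cells did not (adjusted p = 0.143). Ddx58, which encodes RIG-I, had log2 changes of 1.27 ± 0.37 in KO cells and 1.04 ± 0.37 in WT cells and did not pass in either.

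Of 12 genes whose products bind or degrade RNA, 7 rose in KO cells and 6 in WT cells, and 11 of the 12 had positive changes in each genotype. Ifit1, whose product binds viral RNA at its cap, reached 54.8 and 36.8 RPKM in KO LPS libraries and 11.96 and 24.6 RPKM in WT LPS libraries, against 1.73 and 5.81 RPKM in KO untreated and 0.896 and 1.43 RPKM in WT untreated libraries. It rose by 3.41 ± 0.49 in KO cells and 3.09 ± 0.49 in WT cells (SE, limma adjusted p = 0.0159 and 0.0212). Ifit3, a partner of Ifit1 in binding RNA, had 34.6 and 19.0 RPKM in KO LPS libraries and 5.61 and 15.2 RPKM in WT LPS libraries, against 0.925 and 3.57 RPKM in KO untreated and 0.636 and 0.726 RPKM in WT untreated libraries. The 2 genes shared a pattern over the libraries, with KO LPS A highest and untreated WT A lowest. Ifit3 rose by 3.17 ± 0.55 in KO cells and 2.62 ± 0.55 in WT cells (adjusted p = 0.0242 and 0.0377). Ifit2, another gene of this cluster on chromosome 19, had 25.1 and 17.9 RPKM in KO LPS libraries and 3.08 and 9.62 RPKM in WT LPS libraries, against 0.375 and 6.30 RPKM in KO untreated and 0.250 and 1.09 RPKM in WT untreated libraries. The KO untreated libraries lay far apart, and Ifit2 did not pass in either genotype, with 2.81 ± 0.78 in KO cells (adjusted p = 0.0732) and 2.03 ± 0.78 in WT cells (adjusted p = 0.141).

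Promoters were searched on both strands for the ISRE core, GAAA, any 2 bases and GAAA, written GAAANNGAAA. Sequences are from RefSeq on GRCm38.p6, cover 250 bases before to 50 bases after the start of the gene, and are shown because these 4 genes had the largest mean LPS response among those holding the core. Capitals mark the cores, which appear as their reverse complement where they lie on the opposite strand.
Isg15: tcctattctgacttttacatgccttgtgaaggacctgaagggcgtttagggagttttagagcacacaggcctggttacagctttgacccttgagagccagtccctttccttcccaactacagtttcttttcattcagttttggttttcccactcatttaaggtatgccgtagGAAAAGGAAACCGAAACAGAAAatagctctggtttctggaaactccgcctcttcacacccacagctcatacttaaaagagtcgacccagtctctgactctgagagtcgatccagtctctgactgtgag
Ifit1: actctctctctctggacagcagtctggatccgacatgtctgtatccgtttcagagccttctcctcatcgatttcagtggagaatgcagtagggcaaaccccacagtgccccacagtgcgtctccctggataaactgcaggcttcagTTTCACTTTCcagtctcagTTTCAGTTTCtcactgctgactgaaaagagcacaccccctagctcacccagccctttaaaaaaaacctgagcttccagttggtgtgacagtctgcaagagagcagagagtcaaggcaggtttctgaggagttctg
Ifit3: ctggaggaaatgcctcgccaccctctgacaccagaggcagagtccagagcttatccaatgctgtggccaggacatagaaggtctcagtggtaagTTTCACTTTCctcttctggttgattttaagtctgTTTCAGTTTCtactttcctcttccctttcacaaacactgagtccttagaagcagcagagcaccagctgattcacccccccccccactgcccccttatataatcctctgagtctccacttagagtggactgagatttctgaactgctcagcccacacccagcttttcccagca
Rsad2: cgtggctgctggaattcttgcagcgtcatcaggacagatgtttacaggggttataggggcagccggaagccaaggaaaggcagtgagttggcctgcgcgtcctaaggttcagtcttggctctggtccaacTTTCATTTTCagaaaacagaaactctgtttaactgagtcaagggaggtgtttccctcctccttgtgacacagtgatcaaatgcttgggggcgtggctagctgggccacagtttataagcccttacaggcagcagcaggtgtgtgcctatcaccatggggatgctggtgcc
The Isg15 window (chr4:156200769-156201068, minus strand) held 3 cores that overlap in a single run, starting 78 to 66 bases before the gene. The Ifit1 window (chr19:34640639-34640938, plus strand) held 2 cores at 104 and 85 bases before the start, and the Ifit3 window (chr19:34583279-34583578, plus strand) held 2 at 156 and 122 bases. The Rsad2 window (chr12:26456403-26456702, minus strand) held 1 core at 120 bases before the start.
Of the 42 members, 32 matched a promoter entry. An ISRE core was in 15 of these 32 (46.9%), against 3.44% of all 32851 promoters and 3.99% of the 27025 genes with an entry. It was in 8 of 14 members that rose with LPS in either genotype and in 7 of the 18 others. The 18 include Ifnb1, which was below the filter and held no ISRE core. Oasl1, Oasl2, Cmpk2 and Xaf1, which rose in both genotypes, held no core in this window. The core of the gamma-activated site, TTC, any 3 bases and GAA, was in 10 of 32 members (31.2%), against 8.30% of promoters and 9.55% of genes. It was in 3 of the 14 members that rose and in 7 of the 18 others. A match describes these windows only.

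The oligoadenylate synthetase family, whose products make the activator of RNase L, held 6 members. Oasl1, a relative without synthetase activity that in mice represses translation of Irf7, had 25.2 and 31.5 RPKM in KO LPS libraries and 6.60 and 15.0 RPKM in WT LPS libraries, against 2.13 and 2.27 RPKM in KO untreated and 0.432 and 1.08 RPKM in WT untreated libraries. It rose by 3.19 ± 0.37 in KO cells and 2.67 ± 0.37 in WT cells (SE, limma adjusted p = 0.00987 and 0.0155). Oasl2 and Oas2 rose in both genotypes by 1.64 to 1.90. Oas1g also rose in both, while its neighbour Oas1a did not pass in either. The genes Oas1g and Oas1a lie 8.64 kb apart on chromosome 5 and are near copies, so their split of reads is uncertain. Oas3 had 32.9 and 19.2 RPKM in KO LPS libraries and 10.8 and 13.4 RPKM in WT LPS libraries, against 11.5 and 7.53 RPKM in KO untreated and 6.14 and 3.64 RPKM in WT untreated libraries. Its changes of 1.34 ± 0.35 and 1.18 ± 0.35 did not pass (adjusted p = 0.0622 in KO and 0.0808 in WT cells).
Isg20, an RNA exonuclease, had 25.6 and 15.9 RPKM in KO LPS libraries and 7.02 and 13.8 RPKM in WT LPS libraries, against 4.28 and 4.48 RPKM in KO untreated and 4.14 and 3.95 RPKM in WT untreated libraries. It rose by 1.98 ± 0.34 in KO cells (adjusted p = 0.0233), and its change of 1.11 ± 0.34 in WT cells did not pass (adjusted p = 0.0862). Eif2ak2, which encodes the RNA-activated kinase PKR, shared its locus in the table with the predicted gene Gm6548 and did not pass in either genotype, and neither did the mitochondrial RNA exonuclease gene Pnpt1, the single gene of the 12 with negative changes (-0.19 ± 0.20 in KO and -0.18 ± 0.20 in WT cells, and 0.08 and 0.07 with median-ratio scaling of the libraries).

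Of 5 genes acting on nucleotide pools or on viral nucleoprotein, 4 rose in KO cells and 3 in WT cells. Rsad2, which encodes viperin, an enzyme that makes a chain-terminating nucleotide, had 46.2 and 39.6 RPKM in KO LPS libraries and 7.74 and 21.9 RPKM in WT LPS libraries, against 2.50 and 4.36 RPKM in KO untreated and 1.74 and 2.42 RPKM in WT untreated libraries. It rose by 3.34 ± 0.44 in KO cells and 2.21 ± 0.44 in WT cells (SE, limma adjusted p = 0.0131 and 0.0339). Cmpk2, a nucleotide kinase gene transcribed away from Rsad2 across a gap of 12.8 kb on chromosome 12, also rose in both, by 2.30 ± 0.41 and 1.87 ± 0.41. The neighbours therefore rose together in each genotype. Mx1, a GTPase gene whose allele in C57BL/6 mice is defective, had 34.8 and 21.9 RPKM in KO LPS libraries and 5.46 and 12.5 RPKM in WT LPS libraries, against 0.642 and 4.76 RPKM in KO untreated and 0.527 and 1.29 RPKM in WT untreated libraries. Its change of 3.22 ± 0.62 passed in KO cells (adjusted p = 0.0311) and that of 2.32 ± 0.62 in WT cells did not (adjusted p = 0.067). Mx2, its neighbour and relative, had 25.4 and 15.6 RPKM in KO LPS libraries and 5.09 and 10.1 RPKM in WT LPS libraries, against 0.950 and 2.62 RPKM in KO untreated and 0.938 and 0.665 RPKM in WT untreated libraries. It passed in both genotypes, with 2.98 ± 0.42 in KO cells and 2.2 ± 0.42 in WT cells. Samhd1, which encodes an enzyme that degrades nucleotide precursors of DNA, was the exception in the group. It had 68.2 and 63.1 RPKM in KO LPS libraries and 51.7 and 73.1 RPKM in WT LPS libraries, against 70.4 and 147.6 RPKM in KO untreated and 71.0 and 76.3 RPKM in WT untreated libraries, and did not pass in either genotype.

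Of 8 genes of the ubiquitin-like and ADP-ribose systems, 4 rose in KO cells and 3 in WT cells. Isg15, the ubiquitin-like modifier itself (chromosome 4, 155573533 to 155574927 on mm9, minus strand), had 209.6 and 222 RPKM in KO LPS libraries and 67.8 and 202 RPKM in WT LPS libraries, against 10.8 and 15.5 RPKM in KO untreated and 9.18 and 10.3 RPKM in WT untreated libraries. On the log2(RPKM + 1) scale its rise was the largest among the members in both genotypes. It was 3.95 ± 0.46 in KO cells and 3.46 ± 0.46 in WT cells (SE, limma adjusted p = 0.00987 and 0.0149). In mean RPKM, Isg15 rose 16.4-fold in KO cells and 13.8-fold in WT cells. By that measure Ifit1 (15.8-fold), Ifit3 (15.2-fold) and Oasl1 (14.2-fold) rose more in WT cells. Usp18, which encodes the protease that removes Isg15 and dampens receptor signalling, had 34.1 and 25.1 RPKM in KO LPS libraries and 8.82 and 14.7 RPKM in WT LPS libraries, against 11.5 and 12.9 RPKM in KO untreated and 7.35 and 7.92 RPKM in WT untreated libraries. Its change of 1.20 ± 0.27 passed in KO cells (adjusted p = 0.047) and that of 0.52 ± 0.27 in WT cells did not (adjusted p = 0.241). Parp14, an ADP-ribosyltransferase gene, and Trim30a, a TRIM-family gene with close relatives beside it in the mouse genome that may share its reads, rose in both genotypes by 1.40 to 1.74. Trim30a had 133 and 110.3 RPKM in KO LPS libraries and 69.9 and 104.9 RPKM in WT LPS libraries, against 35.2 and 57.6 RPKM in KO untreated and 31.1 and 30.0 RPKM in WT untreated libraries. Parp9 and Dtx3l, which act as a complex and overlap by 682 bases on opposite strands, had changes of 0.92 to 1.26 and did not pass, and their reads cannot be told apart in the overlap, since the strandedness of the libraries is not given. Parp12 did not pass in either genotype, and neither did Trim25, which encodes a ubiquitin ligase acting on RIG-I.

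Of the 2 membrane effectors, Ifitm3 passed in WT cells. Ifitm3, which blocks fusion of viruses in endosomes, was the most abundant member in all 4 groups, with 552 and 441 RPKM in KO LPS libraries and 888 and 689 RPKM in WT LPS libraries, against 344 and 390.4 RPKM in KO untreated and 387 and 213 RPKM in WT untreated libraries. Its change was 0.43 ± 0.33 in KO cells (SE, limma adjusted p = 0.397) and 1.44 ± 0.33 in WT cells (adjusted p = 0.0465). Bst2, which encodes tetherin, a protein that holds budding virus on the cell, had 143 and 104.1 RPKM in KO LPS libraries and 76.3 and 111.4 RPKM in WT LPS libraries, against 89.6 and 71.0 RPKM in KO untreated and 86.7 and 79.1 RPKM in WT untreated libraries, and did not pass in either genotype.

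Of the remaining 8 induced genes, 3 rose in KO cells and 2 in WT cells. Rtp4, a chaperone of receptors at the membrane, had 86.4 and 56.8 RPKM in KO LPS libraries and 49.6 and 54.6 RPKM in WT LPS libraries, against 15.2 and 25.7 RPKM in KO untreated and 9.32 and 7.48 RPKM in WT untreated libraries. It rose by 1.77 ± 0.30 in KO cells and 2.50 ± 0.30 in WT cells (SE, limma adjusted p = 0.0238 and 0.0108). Xaf1, a gene linked to cell death, rose in both as well, by 1.84 ± 0.29 and 1.78 ± 0.29. Ifi35 had 79.4 and 59.3 RPKM in KO LPS libraries and 46.6 and 56.4 RPKM in WT LPS libraries, against 31.1 and 35.0 RPKM in KO untreated and 27.2 and 29.2 RPKM in WT untreated libraries. It passed in KO cells, with 1.03 ± 0.21 there and 0.84 ± 0.21 in WT cells (adjusted p = 0.0378 and 0.061). All 4 LPS libraries lay above all untreated libraries for each of these 3 genes. Ifi44 varied most among replicates, with 29.6 and 1.32 RPKM in KO LPS libraries and 10.9 and 14.8 RPKM in WT LPS libraries, against 8.31 and 4.38 RPKM in KO untreated and 3.69 and 6.13 RPKM in WT untreated libraries. Tor3a, Slfn5, Slfn8 and the nuclear body gene Sp100 did not pass in either genotype.

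**Figure D2:**
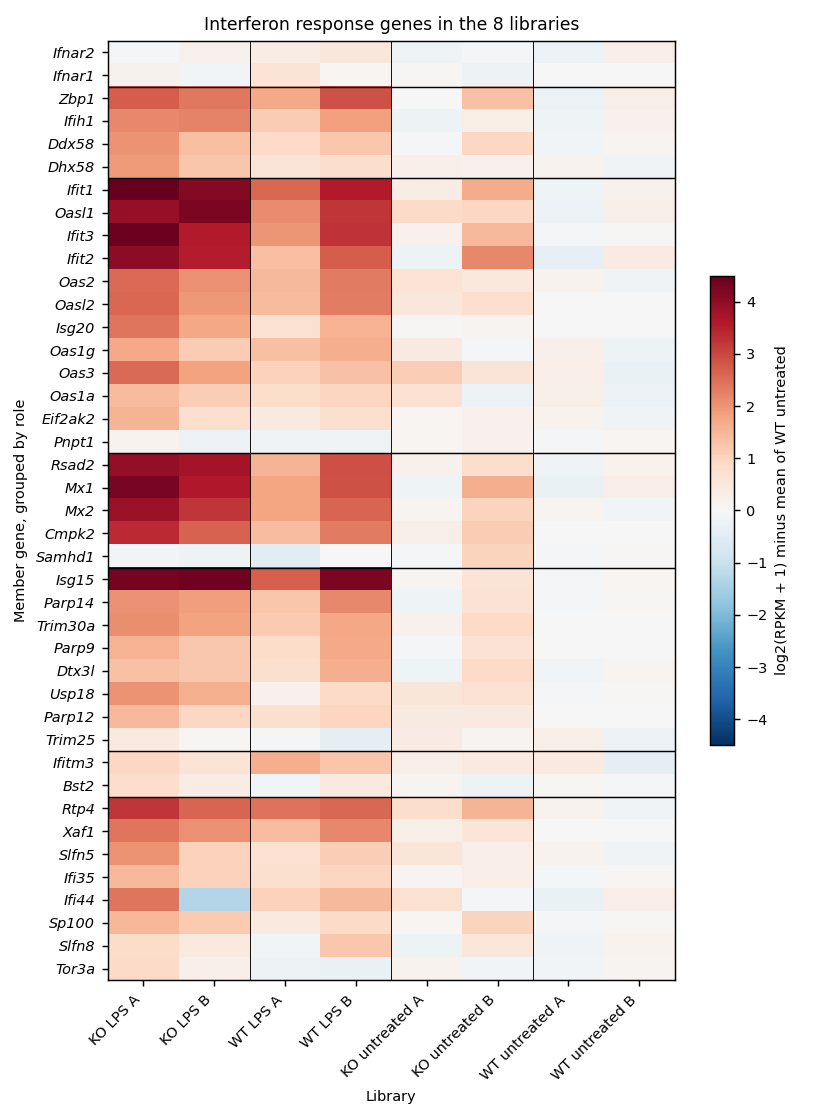
Level of the 41 members in each library as log2(RPKM + 1) minus the mean of the untreated WT libraries, with genes grouped by role and lines between roles. The KO LPS libraries had medians of 2.03 and 1.36 over the members, the WT LPS libraries 1.04 and 1.55, and the KO untreated libraries 0.15 and 0.57.

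The same 15 members rose in both genotypes: Cmpk2, Ifih1, Ifit1, Ifit3, Isg15, Mx2, Oas1g, Oas2, Oasl1, Oasl2, Parp14, Rsad2, Rtp4, Trim30a and Xaf1. Dhx58, Ifi35, Isg20, Mx1 and Usp18 passed in KO cells and not in WT cells, and Ifitm3 and Zbp1 in WT cells and not in KO cells. The remaining 19 passed in neither. These differences in calls were tested by the interaction, the LPS response in KO cells minus that in WT cells, and none of the 41 members passed it in limma, with 0 at an unadjusted p under 0.05. Over all loci 0.0355% passed the interaction, and 1.63% had an unadjusted limma p under 0.05. The responses of the members in KO and WT cells, which share no library, correlated at r = 0.89 across the 41 genes, against 0.83 across all loci, where genes are not independent replicates. The change was larger in KO cells for 25 members and larger in WT cells for 16. The largest interactions were those of Rsad2 (1.13 ± 0.63, SE), Ifitm3 (-1.01 ± 0.46), Ifi44 (-0.99 ± 1.45), Mx1 (0.90 ± 0.88), Isg20 (0.87 ± 0.48) and Tor3a (0.80 ± 0.35), all with a limma adjusted p of 0.9999.

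**Figure D3:**
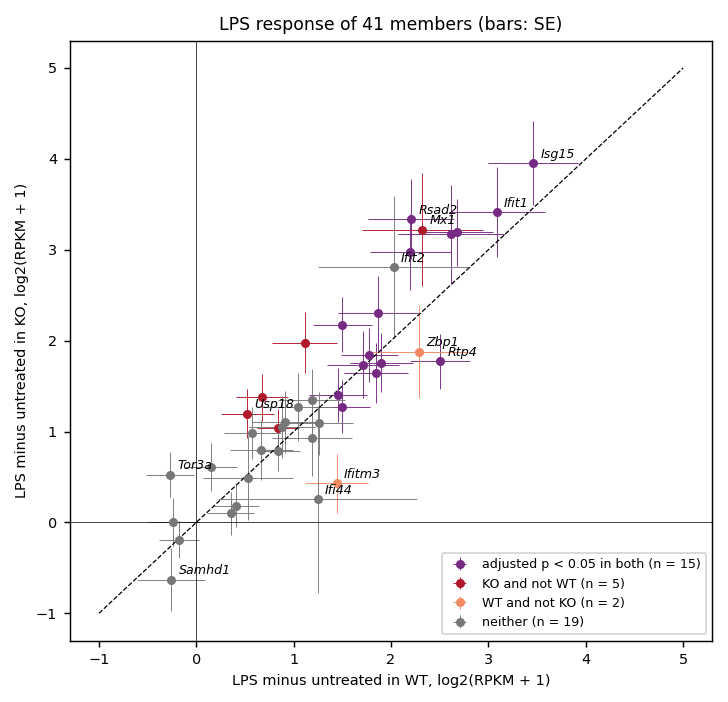
Change of each of the 41 members with LPS in KO cells (vertical axis) against WT cells (horizontal axis), as log2(RPKM + 1) with bars of 1 SE and a dashed line of equal change. The 15 members that passed in both genotypes lie at 1.27 or more on the vertical axis, and 25 of the 41 members lie above the line.

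These counts changed when single libraries were left out. Without KO LPS A, 1 member passed in KO cells (Oasl1), and without KO LPS B 0 passed. Without KO untreated A 6 passed, without KO untreated B 3 passed, and without either WT untreated library 13 passed. In WT cells 1 member passed without WT LPS B (Isg15), 0 without WT untreated A or B, and 9 without either KO LPS library. No member that passed changed its sign in any of these fits.

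The genotypes were compared without and with LPS. Untreated, 38 of 41 members had positive differences, KO minus WT, with a median of 0.40, but 64.1% of all loci did too, with a median of 0.07. None passed in limma, against 0.0266% of all loci, and 3 of 41 (7.32%) had an unadjusted p under 0.05, against 0.834% of all loci. Both KO libraries lay above both WT libraries for 20 of 41 members, against 17.8% of loci. The largest differences among members at 5 RPKM or more were those of Rtp4 (1.15 ± 0.30, SE, limma adjusted p = 1) and Oas3 (0.84 ± 0.35), whose values in all libraries are given above. Zbp1 (0.66 ± 0.51), Oasl2 (0.63 ± 0.33), Usp18 (0.61 ± 0.27) and Trim30a (0.55 ± 0.30) came next. Of Oasl2, the KO untreated libraries held 16.6 and 19.5 RPKM, and the WT untreated libraries 11.2 and 11.3 RPKM.

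With LPS, the 41 members differed by a median of 0.49, KO minus WT, and 36 of them had positive differences, where all loci had a median of 0.05 and 58.9% positive. None passed in limma, against 0.00887% of all loci, while 12 of 41 (29.3%) had an unadjusted p under 0.05, against 4.42% of all loci. Both KO LPS libraries lay above both WT LPS libraries for 22 of 41 members, against 18.7% of loci. The largest differences were those of Ifit2 (1.75 ± 0.78, SE), Rsad2 (1.63 ± 0.44), Mx1 (1.62 ± 0.62), Oasl1 (1.40 ± 0.37), Ifit3 (1.37 ± 0.55) and Mx2 (1.35 ± 0.42), with limma adjusted p from 0.924 to 1. The smallest unadjusted p was that of Usp18, whose difference was 1.29 ± 0.27 with an adjusted p of 0.907. The receptor genes Ifnar1 and Ifnar2 and the membrane gene Ifitm3 had differences of -0.33 ± 0.24, -0.35 ± 0.23 and -0.66 ± 0.33, and the other 2 negative members were Ifi44 (-0.70 ± 1.02) and Oas1g (-0.05 ± 0.29).

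The difference with LPS depended on the letter. Between the A libraries it was positive in 38 of 41 members, with a median of 1.05, and between the B libraries in 22 of 41, with a median of 0.07. Of all loci, 45.8% were positive in the A pair and 66.0% in the B pair, with medians of -0.03 and 0.14. The same 22 members were positive in both letters, and Ifitm3, Ifnar1 and Ifnar2 were negative in both. Rsad2 differed by 2.43 between the A libraries and 0.83 between the B libraries, Mx1 by 2.47 and 0.76, and Isg15 by 1.61 and 0.13. Oasl1 differed by 1.78 and 1.02, and Usp18 by 1.84 and 0.73. Without LPS the order of the letters was the opposite, with a median of 0.17 between the A libraries and 0.63 between the B libraries. All loci had medians of 0.04 and 0.10 there. The interaction was positive in 38 of 41 members in the A libraries (median 0.79), against 40.5% of all loci. In the B libraries it was positive in 11 of 41 (median -0.57), against 50.1% of all loci. Its direction over the members thus differed between the letters.

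**Figure D4:**
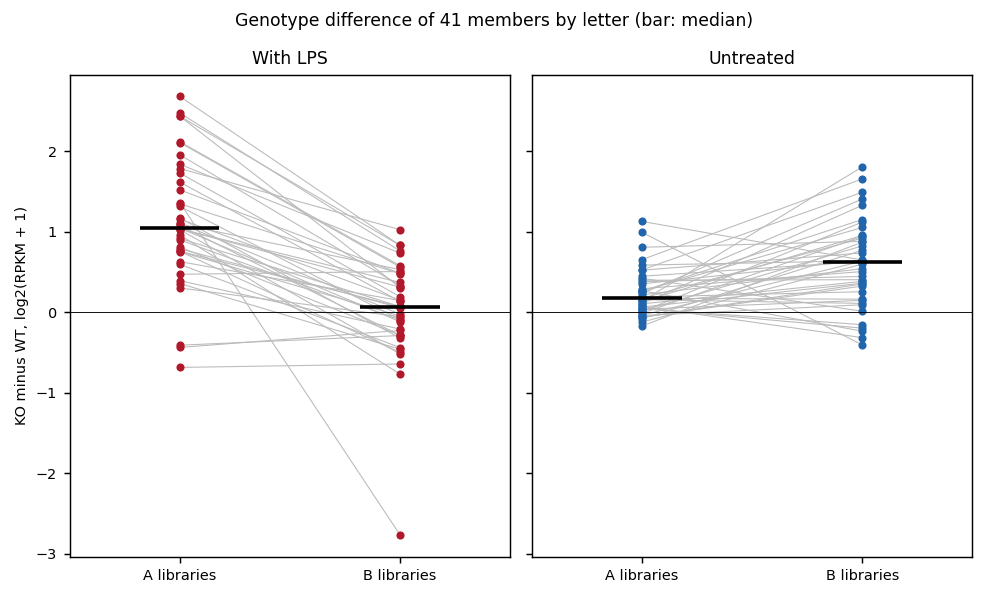
KO minus WT difference of the 41 members within the A libraries and within the B libraries, with LPS (left) and untreated (right), in log2(RPKM + 1); thin lines join a gene and bars are medians. With LPS the medians are 1.05 in A and 0.07 in B, and untreated they are 0.17 in A and 0.63 in B.

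Levels differed by library as well as by group. KO LPS A held the highest value of 28 of the 41 members, WT LPS B of 6, KO LPS B of 3 and WT LPS A and KO untreated B of 2 each. WT untreated A held the lowest value of 16 members and WT untreated B of 13. The summed B cell markers were higher in both KO LPS libraries than in both WT LPS libraries, by similar ratios in the A and the B pair. Without LPS, KO untreated A had a lower sum than WT untreated A, and KO untreated B had the highest sum of the 8 and the highest member median of the 4 untreated libraries. Of the 7 markers, the B cell receptor gene Cd79a had 332 and 241 RPKM in KO LPS libraries against 148 and 113.6 RPKM in WT LPS libraries. WT LPS B had the lowest marker sum, 420.0 RPKM, and a member median of 1.55. The macrophage markers, most of whose sum came from Lyz2, summed to 7173 and 6171 RPKM in KO LPS, 19579 and 14958 RPKM in WT LPS, 11320 and 17902 RPKM in KO untreated and 31644 and 35326 RPKM in WT untreated libraries. Without Lyz2, the other 6 summed to 2062 and 1624 RPKM in KO LPS and 2250 and 1728 RPKM in WT LPS libraries, which overlap, and to 2817 and 2901 RPKM in KO untreated and 3056 and 3008 RPKM in WT untreated libraries. Of these 6, Itgam, Csf1r and Gata6 were lower in both KO LPS libraries than in both WT LPS libraries. Csf1r had 339 and 249 RPKM in KO LPS and 645 and 356 RPKM in WT LPS libraries. Emr1 and Icam2 were higher in both KO LPS libraries, and Cd68 overlapped. The part of B cells and macrophages in the genotype difference was not tested. Of 5 markers of plasmacytoid dendritic cells, known for high interferon output, Klk1 was listed at 0 and Siglech at 0.110 RPKM or less in every library, while Cox6a2 reached 8.34 RPKM, Ccr9 4.71 RPKM and Pacsin1 3.01 RPKM. The 5 summed to 8.55 and 10.4 RPKM in KO LPS, 8.79 and 9.69 RPKM in WT LPS, 6.24 and 11.01 RPKM in KO untreated and 6.20 and 7.65 RPKM in WT untreated libraries.

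**Figure D5:**
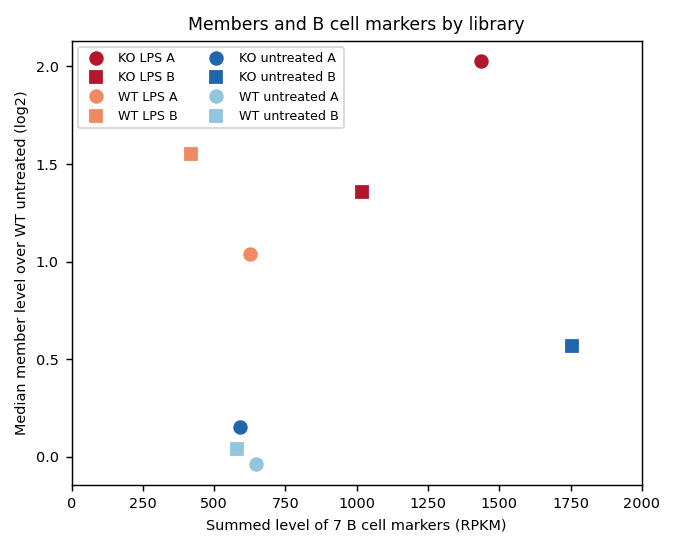
Median level of the 41 members over the untreated WT mean (log2, vertical axis) against the summed RPKM of 7 B cell markers (horizontal axis) in the 8 libraries, with circles for A and squares for B. KO LPS A stands at 1435 RPKM and 2.03, and KO untreated B at 1755 RPKM and 0.57.

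Of 22 genes of interferon signalling and LPS or nucleic acid sensing, 2 rose in KO cells, Socs1 and Irf7, and 3 in WT cells, the same 2 and Tlr4, while 0 fell. Over all loci, 3.31% rose in KO cells and 3.17% in WT cells. The medians of the list were -0.04 and 0.11. Irf7, the transcription factor that amplifies interferon production, had 111.7 and 76.5 RPKM in KO LPS libraries and 41.5 and 90.6 RPKM in WT LPS libraries, against 24.7 and 28.2 RPKM in KO untreated and 16.9 and 16.3 RPKM in WT untreated libraries. It rose by 1.77 ± 0.36 in KO cells and 1.83 ± 0.36 in WT cells (SE, limma adjusted p = 0.0371 and 0.0334). Socs1, which encodes an inhibitor of JAK kinases, rose by 3.39 ± 0.70 and 4.85 ± 0.70 (adjusted p = 0.0378 and 0.0168). Stat2, a subunit of ISGF3, did not pass in either genotype (1.35 ± 0.43 in KO and 1.46 ± 0.43 in WT cells, adjusted p = 0.0975 and 0.0813).

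Of 20 interferon genes other than Ifnb1 that were looked for, 18 were listed, and 1 reached the filter: Ifng, which encodes interferon gamma, a product of T and NK cells. It was listed at 0 and 42.5 RPKM in KO LPS libraries and 0.733 and 81.2 RPKM in WT LPS libraries, against 0 and 0.361 RPKM in KO untreated and 0 and 0.173 RPKM in WT untreated libraries. Ifng was thus high in the B libraries given LPS and near 0 in the A libraries, and it did not pass. Among 12 tested GTPase genes of the GBP and IRG families, which interferon gamma is known to induce strongly, 0 passed with LPS in limma in either genotype, with 3 in KO cells and 10 in WT cells at an unadjusted p under 0.05, against 29.2% and 29.3% of all loci. Their medians were 1.48 in KO cells and 2.81 in WT cells. Iigp1, of the IRG family, had 8.42 and 37.0 RPKM in KO LPS libraries and 8.76 and 265 RPKM in WT LPS libraries, against 0.327 and 55.2 RPKM in KO untreated and 0.320 and 1.38 RPKM in WT untreated libraries. In all 12 genes the interaction over both letters was negative (median -1.01), and 0 of the 12 passed. The type I members had a median of 0.17, with opposite directions in the A and B libraries. The interaction of the 12 genes was not split by letter. Gbp5, with the largest LPS change of the 12, went from 1.29 to 135 RPKM in KO A and 2.47 to 97.0 RPKM in WT A libraries. In the B libraries it went from 34.7 to 188 RPKM in KO and 8.32 to 309 RPKM in WT cells. Markers of T and NK cells summed to 41.5 and 46.4 RPKM in KO LPS, 17.8 and 22.7 RPKM in WT LPS, 16.8 and 80.3 RPKM in KO untreated and 21.6 and 29.8 RPKM in WT untreated libraries, and those of mast cells to 3.04 and 66.5 RPKM in KO LPS, 24.2 and 83.8 RPKM in WT LPS, 0.197 and 166 RPKM in KO untreated and 0.689 and 71.4 RPKM in WT untreated libraries. The sums of both lists were higher in the B library of every group. Most of the T and NK sum came from Cd2, with 38.1 and 31.3 RPKM in KO LPS libraries. The other T and NK markers found, several near 0, were each higher in B in every group. Cd3g, for example, had 2.81 and 6.48 RPKM in KO LPS libraries. The part of T, NK and mast cells in the differences between letters was not tested. Of 18 tested inflammatory cytokine and chemokine genes, 14 rose in each genotype and 0 fell, where 3.31% (KO) and 3.17% (WT) of all loci rose. The medians of the 18 were 6.18 in KO cells and 5.13 in WT cells, well above those of the interferon genes.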

How the data were processed

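RNA of 8 macrophage libraries was measured by RNA sequencing, in 4 groups of 2. The authors deposited RPKM values for 24192 lines, of which 457 repeat a locus. Alignment used TopHat2 2.0.14 on mm9, and Cufflinks 2.2.1 gave the values, per the submitters' processing notes; the annotation is not given in the sources used here. Loci with at least 1 RPKM in 2 or more libraries were kept (11272), and log2(RPKM + 1) was fitted with limma 3.58.1 in R 4.3.3, with 1 mean per group over the 8 libraries and moderated variances that follow a trend. Tests were two-sided, with a Benjamini-Hochberg adjusted p under 0.05 over all loci. The fit was tested on simulated data.

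Depth was estimated from the steps between values below 0.4 RPKM at 2729 loci, of which 94.5% were whole multiples of 1 read within 0.1 read plus 0.02 per read. Coordinates came from GENCODE vM1. The members, the roles and the other gene lists were chosen with earlier results of these data known. By rule, values per library are given for the 3 ligand and receptor genes and for 8 members with the largest change in each LPS comparison. The rule also took 6 members in each other comparison, and up to 6 that passed in 1 genotype. Ifi35 was added after its values were seen. Ifih1, Samhd1 and Bst2, also given per library, lie outside this rule as well. A gene of the pathway list that this rule took is not reported here. Alternatives were other scalings, pseudocounts, filters and variance models, a replicate block, and each library left out.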

Additional observations from a re-analysis of the deposited data

Results flagged for a closer look

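Tor3a, a relative of the torsin ATPases, moved in opposite directions in the genotypes. It had 65.4 and 42.0 RPKM in KO LPS libraries, above the 39.8 and 32.7 RPKM of KO untreated libraries, and 30.1 and 28.8 RPKM in WT LPS libraries, below the 32.9 and 38.6 RPKM of WT untreated libraries. The interaction was 0.80 ± 0.35 on the log2 scale (SE) and did not pass in limma (adjusted p = 0.9999, unadjusted p = 0.0569). Neither change passed on its own, with 0.53 ± 0.25 in KO cells and -0.27 ± 0.25 in WT cells. Both KO LPS libraries lay above both KO untreated libraries for 15.1% of all loci. Both WT LPS libraries lay below both WT untreated libraries for 5172 of 11272 loci, and the median change of all loci in WT cells was -0.25.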

How the results depend on the processing

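The count of members that rose with LPS was 20 in KO and 17 in WT cells. It was 22 and 19 with median-ratio scaling, 21 and 20 with quantile normalization, 18 and 17 with a pseudocount of 0.1 RPKM, 20 and 17 with a filter at 5 RPKM, and 18 and 17 without the variance trend. Without a filter it was 8 and 3, where calls over all loci in either direction were 262 and 270 of 16574. The 8 include Ifnb1, which had an estimated 2.49 and 1.25 reads. Fitting the 4 libraries of each comparison alone gave 14 and 6, with 622 of 10932 and 352 of 10836 loci called in either direction. With 1 library left out the counts ranged from 0 to 22 in KO cells and from 0 to 21 in WT cells, where a lone library is assumed to vary like the other groups. No genotype difference or interaction of a member passed under any of these settings. The labels do not say that a letter pairs libraries, and there are only 2 letters, so the letter was kept out of the fit. Deviations from group means correlated by letter in all 6 pairs of groups, at 0.20 to 0.41 across loci. Across the 41 members the correlation ranged from -0.04, for KO LPS with WT untreated, to 0.58, for WT LPS with KO untreated. For KO LPS with WT LPS it was 0.11 across the members. With the letter as a replicate block 24 members rose in KO and 23 in WT cells, while calls over all loci went to 1611 in KO and 1818 in WT cells, against 746 and 711 without it.

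Median-ratio scaling moved the median of all loci with LPS to -0.04 in KO and -0.02 in WT cells, and Pnpt1 in both genotypes and Samhd1 and Trim25 in WT cells then changed sign; none of them had passed. The Ifi44 interaction of -0.99 ranged from -2.85 to 0.87 over the fits with 1 library left out, with 0.87 without KO LPS B. The Mx1 interaction of 0.90 ranged from -0.0047, without KO untreated A, to 1.81. The Ifnar1 change in KO cells ranged from -0.0626, without KO LPS A, to 0.26, and was -0.037 without KO untreated B. The causes were not tested. With 2 libraries per group, the spread between libraries limits what can pass.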
